A study of Mus musculus with 9 samples.

Results

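The transcription factors that build the heart form a small set of interacting proteins: T-box factors (Tbx2, Tbx3, Tbx5, Tbx20), GATA zinc finger factors (Gata4, Gata6), the homeodomain factor Nkx2-5, the basic helix-loop-helix factors Hand1 and Hand2, and the MADS box factor Mef2c. All probe sets annotated to exactly 1 of these 10 gene symbols were taken, which gave 20 probe sets of 22626 tested and 10 genes of 12393. They were followed over 9 arrays of whole mouse embryos at 9.5 days post coitum in 5 genotype groups. The groups were wild type (+/+, 2 arrays), Notch1 het (Notch1tm1Con/+, 1 array), Notch1 null (Notch1tm1Con/tm1Con, 2 arrays), Dll3 het (Dll3neo/+, 2 arrays) and Dll3 null (Dll3neo/neo, 2 arrays). Notch1 encodes a receptor and Dll3 a ligand of the Notch pathway. The labels name the C57BL/6J strain for 1 Notch1 null array and no strain for the others, and do not say whether a replicate is a single embryo, a pool or a separate litter.

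Tbx5, Gata4, Nkx2-5 and Mef2c switch on genes of the contractile apparatus in the young heart, and Tbx20 acts beside them. Tbx2 and Tbx3 repress that program in the atrioventricular canal, where the muscle stays slow and the valve cushions form, and Hand1 and Hand2 act in the growing ventricles. None of them is restricted to the heart: Hand2, Tbx2, Tbx3 and Tbx5 are also transcribed in limb buds, Hand2 and Tbx2 in branchial arches, Gata4 and Gata6 in gut and extraembryonic endoderm, Hand1 in extraembryonic tissues, and Mef2c in neural crest, vessels and somite muscle. In whole embryos, fewer cells of a type and less RNA per cell cannot be told apart.

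Each deposited value is a linear ratio of an array to 1 number of the probe set's own, which for all 20 probe sets made the median over the 9 arrays exactly 1. The ratios show how arrays differ and not how abundant a transcript is, so levels of different genes are not compared, and detection of these genes or of heart markers cannot be read from them. Group differences are log2 differences with their standard error (SE) from limma, and an adjusted p (Benjamini-Hochberg over all probe sets of a comparison) under 0.05 is called changed. Both Notch1 probe sets were higher in the arrays labelled Notch1 null (ratios 1.31 to 1.74) than in wild type (0.916 to 1.02), and the Dll3 probe set read 0.804 and 0.933 in Dll3 null against 1.09 and 1 in wild type, so neither checks the labels. The dap spike-in control, an RNA added before labelling, read 7.07 and 9.91 for wild type, 5.41 and 2.68 for Notch1 null, 1 in Notch1 het and 0.382 to 0.421 in the 4 Dll3 arrays. Every comparison but that of Dll3 null with Dll3 het therefore sets apart arrays that also differ in this control. Xist and Eif2s3y gave a female pattern in 4 arrays and a male pattern in 5, both wild-type arrays among the latter.

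**Figure D1:**
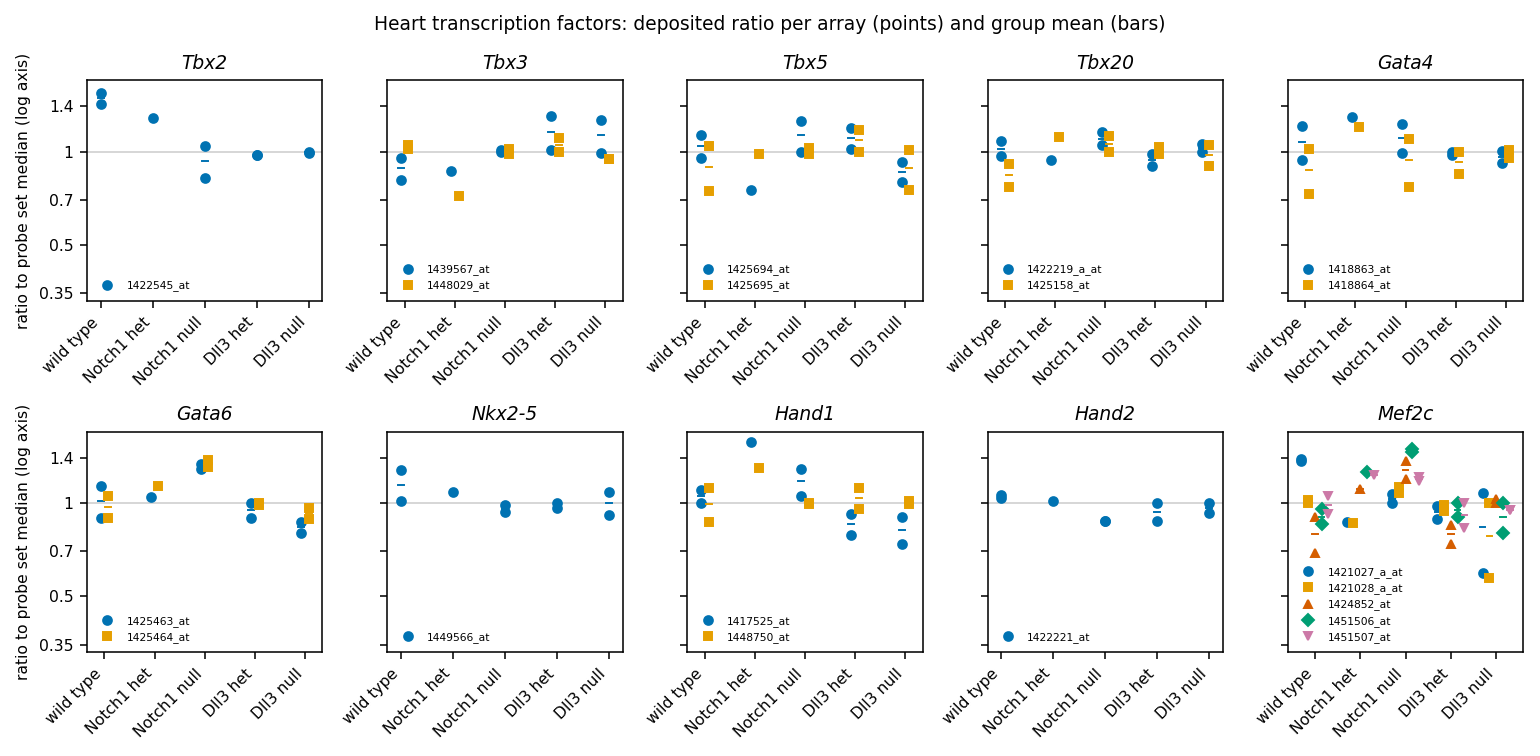
Deposited ratio of every probe set of the 10 heart transcription factors (log axis, 1 is the probe set's median over 9 arrays) in 5 genotype groups; points are arrays, short bars are group means, and colours and symbols are probe sets. Tbx2 was highest in wild type, both Gata6 probe sets were highest in Notch1 null, and the 5 Mef2c probe sets differed among themselves.

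The first comparison asks which of these factors differ in embryos homozygous for the Notch1 allele. In Notch1 null against wild type Tbx2 was lower, and 1 of 2 Gata6 and 2 of 5 Mef2c probe sets were higher. The other 16 probe sets, with all those of Tbx3, Tbx5, Tbx20, Gata4, Nkx2-5, Hand1 and Hand2, did not pass. Thus 4 of 20 probe sets were called (20%), where 9.45% of all probe sets were called in this comparison. An unadjusted p under 0.05 was reached by 7 of the 20, against 23.6% of all. The arrays of both groups did not overlap for 8 of 20 in the direction higher (21.2% of all) and for 4 of 20 in the direction lower (34% of all). By adjusted p, 3 of 20 were called higher against 3.46% of all, and 1 of 20 was called lower against 5.99%. The count was 1 without Notch1 null replicate 1, 0 without Notch1 null replicate 2, 1 without wild type replicate 1 and 0 without wild type replicate 2. With probe sets averaged per gene, Tbx2 was lower, Gata6 higher and 8 genes did not pass, where 12.1% of 12393 genes passed.

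Tbx2, a T-box repressor that keeps chamber muscle genes off in the atrioventricular canal, has a single probe set. It (1422545_at) read 1.55 and 1.43 in wild type, 1.29 in Notch1 het, 1.05 and 0.821 in Notch1 null, 0.978 and 0.977 in Dll3 het, and 1 and 0.991 in Dll3 null. Both wild-type arrays lay above the other 7, as for 3 of the 20 probe sets and 6.77% of all, the Notch1 het array came next, and the 3 remaining groups lay close together. Against wild type Tbx2 fell 1.60-fold in Notch1 null (log2 -0.68 ± 0.13 SE, adjusted p = 0.0132). The call ended without Notch1 null replicate 2 (log2 -0.51), without wild type replicate 1 and without wild type replicate 2. It held in the other 15 of 18 alternatives run on this probe set, which are not 15 separate checks. Leaving out the single Notch1 het array could not change this comparison. The fit without the Dll3 arrays gave the same result as that with the 2 groups alone.

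The Dll3 groups showed Tbx2 differences of like size that did not pass. The log2 difference from wild type was -0.58 ± 0.13 SE in Dll3 null (95% interval -0.86 to -0.29, adjusted p = 0.175) and -0.60 ± 0.13 in Dll3 het (-0.89 to -0.32, adjusted p = 0.0682). In the single Notch1 het array it was -0.21 ± 0.16 (-0.56 to 0.15, adjusted p = 0.543). These comparisons share the wild-type arrays, which also carry the highest dap values; its part in the Tbx2 difference was not tested. With no wild-type array in the comparison, Tbx2 differed by -0.10 ± 0.13 between Notch1 null and Dll3 null (-0.39 to 0.18, adjusted p = 0.732), by 0.03 ± 0.13 between Dll3 null and Dll3 het and by -0.47 ± 0.16 between Notch1 null and Notch1 het (adjusted p = 0.157). Tbx4, its nearest measured neighbour on one side in the RefSeq table of GRCm38.p6 and a T-box gene of the hindlimb, had a log2 difference of -0.47 ± 0.15 between Notch1 null and wild type that did not pass (adjusted p = 0.0782); Bcas3 on the other side had 0.05 ± 0.11.

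Tbx3, the close relative of Tbx2 that marks the conduction system, did not pass in any of the 7 comparisons. Probe set 1439567_at gave 1.01 and 1 for Notch1 null, 0.956 and 0.812 for wild type, 0.865 in Notch1 het, 1.31 and 1.02 in Dll3 het and 0.994 and 1.27 in Dll3 null. Probe set 1448029_at lay within 0.947 to 1.11 in all arrays but Notch1 het, which read 0.718. That array was thus the lowest for 1448029_at (log2 -0.53 ± 0.13 SE against wild type, adjusted p = 0.0604), while it lay between both wild-type arrays for 1439567_at. In Notch1 null the log2 differences were 0.19 ± 0.16 (95% interval -0.17 to 0.55) and -0.05 ± 0.10 (-0.28 to 0.18). Both probe sets come from different source sequences.

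Tbx5, which acts with Gata4 and Nkx2-5 in chamber muscle, and Tbx20, a T-box factor of the whole heart tube, did not pass in any of the 7 comparisons. The Tbx5 probe sets ranged from 0.753 to 1.26 (1425694_at) and from 0.748 to 1.18 (1425695_at), and wild type alone read 0.956 and 1.14 in one and 0.748 and 1.04 in the other. Against wild type the log2 differences in Notch1 null were 0.11 ± 0.15 SE and 0.19 ± 0.18, and both turned sign when wild type replicate 1 was left out. Tbx20 was above both wild-type arrays in both Notch1 null arrays at 1425158_at (1.13 and 1 against 0.915 and 0.767, log2 0.34 ± 0.13, adjusted p = 0.148), but not at 1422219_a_at (1.16 and 1.05 against 1.08 and 0.968, log2 0.11 ± 0.11).

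Gata6, which is transcribed in heart muscle, vessel muscle and endoderm, had 2 probe sets from 1 source sequence with like patterns. At 1425464_at both Notch1 null arrays read 1.31 and 1.38, against 1.05 and 0.893 in wild type, 1.13 in Notch1 het, 0.988 and 1 in Dll3 het and 0.890 and 0.968 in Dll3 null. At 1425463_at they read 1.34 and 1.29, against 1.14 and 0.893, 1.04, 1 and 0.895, and 0.803 and 0.869 in the same order of groups. In both probe sets the Notch1 null arrays lay above the other 7, as for 5 of the 20 probe sets and 7.08% of all.

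Against wild type, Gata6 rose 1.38-fold at 1425464_at in Notch1 null (log2 0.47 ± 0.11 SE, adjusted p = 0.0341), while 1425463_at had 0.38 ± 0.13 (95% interval 0.08 to 0.68, adjusted p = 0.114). This call held in 7 of 18 alternatives and ended in 11. The highest adjusted p was 0.192, without wild type replicate 2. Leaving out Notch1 null replicate 1 (adjusted p = 0.0994), Notch1 null replicate 2 (0.188), wild type replicate 1 (0.0571) or either Dll3 het array (0.0509) each ended it, as did replicate number as a block (0.0520), embryo sex in the fit (0.0526), quantile normalization (0.0843) and fits without the Dll3 arrays or with the 2 groups alone (0.0649 each).

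Gata4, the other GATA factor of heart muscle and endoderm, did not pass anywhere. Its 2 probe sets, also from 1 source sequence, read 0.994 and 1.23 (1418863_at) and 0.772 and 1.10 (1418864_at) in Notch1 null, against 1.21 and 0.940, and 1.02 and 0.729, for the controls. Within each group of these 2, both probe sets put the same array higher, and the groups overlapped. The log2 differences were 0.05 ± 0.15 SE and 0.10 ± 0.20, with 95% intervals of -0.29 to 0.38 and -0.34 to 0.54. The highest Gata4 readings were those of Notch1 het (1.295 and 1.2), where the difference from wild type did not pass (log2 0.28 ± 0.18, adjusted p = 0.465, and 0.48 ± 0.24, adjusted p = 0.320).

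Nkx2-5, the homeodomain factor found in early heart muscle cells, gave ratios of 0.934 and 0.985 for Notch1 null, against 1.02 and 1.28 for wild type at its single probe set (1449566_at). Both Notch1 null arrays lay below both wild-type arrays, but the difference did not pass (log2 -0.25 ± 0.14 SE, 95% interval -0.56 to 0.06, adjusted p = 0.312). Hand2, a factor of the right ventricle, branchial arches and limb buds, had the narrowest range of the 10 genes, 0.874 to 1.06. Its wild-type ratios, 1.06 and 1.04, lay above the other 7 arrays, and those of Notch1 null were 0.879 and 0.874 (log2 -0.26 ± 0.11, adjusted p = 0.179).

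Hand1, of the left ventricle and extraembryonic tissue, was highest in Notch1 het, at 1.57 (1417525_at) and 1.30 (1448750_at). The difference of that single array from wild type did not pass (log2 0.58 ± 0.18 SE, adjusted p = 0.125, and 0.40 ± 0.17, adjusted p = 0.230). At 1417525_at all 5 wild-type and Notch1 arrays (1 to 1.57) lay above all 4 Dll3 arrays (0.738 to 0.921), as for 1 of the 20 probe sets here and 1.71% of all. These arrays are also parted by the dap control, whose part was not tested, and 1448750_at did not show this split (0.867 to 1.30 against 0.957 to 1.12). The log2 difference between Notch1 null and Dll3 null was 0.52 ± 0.15 at 1417525_at (adjusted p = 0.0775) and -0.01 ± 0.14 at 1448750_at.

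Mef2c, a partner of the other factors in muscle genes, was the most divided gene. RefSeq (GRCm38.p6) lists 3 start sites for it in the promoter table, all on the plus strand, and the windows from 250 bases before to 50 bases after each start are shown because the 5 probe sets did not move together. Capitals mark letters of 5 short motifs searched on both strands: TGGGAA of RBPJ, the DNA-binding partner of Notch, ACGTG of the hypoxia response, GGTGTGA of T-box factors, AGATAA of GATA factors and AAGTG of NKX2-5.
Mef2c, chr13:83503784-83504083: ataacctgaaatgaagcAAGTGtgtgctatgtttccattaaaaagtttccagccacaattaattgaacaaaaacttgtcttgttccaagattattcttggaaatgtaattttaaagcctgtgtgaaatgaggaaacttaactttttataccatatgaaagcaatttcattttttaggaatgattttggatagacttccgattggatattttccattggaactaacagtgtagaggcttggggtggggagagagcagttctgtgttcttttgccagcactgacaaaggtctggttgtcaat
Mef2c, chr13:83523406-83523705: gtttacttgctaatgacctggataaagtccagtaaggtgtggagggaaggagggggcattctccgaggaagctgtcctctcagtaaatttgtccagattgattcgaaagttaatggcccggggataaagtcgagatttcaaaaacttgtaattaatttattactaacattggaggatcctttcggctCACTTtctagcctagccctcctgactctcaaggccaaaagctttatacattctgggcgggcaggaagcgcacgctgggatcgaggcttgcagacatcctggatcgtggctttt
Mef2c, chr13:83573357-83573656: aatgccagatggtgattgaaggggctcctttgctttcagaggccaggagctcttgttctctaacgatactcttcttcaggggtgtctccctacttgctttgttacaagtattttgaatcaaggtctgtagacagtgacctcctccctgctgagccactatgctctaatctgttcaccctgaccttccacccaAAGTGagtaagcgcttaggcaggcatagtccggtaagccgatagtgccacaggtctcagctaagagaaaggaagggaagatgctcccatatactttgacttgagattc

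Each of the 3 windows held the NKX2-5 letters once, as did 46.4% of 32851 promoter windows of this length, and none of the other 4 motifs. The starts lie apart on the chromosome, and the first window was poorer in G and C (35.7%) than the other two (47% and 48.3%). Which start each probe set reads is not known from the tables used. Windows of 4 of the 10 genes (Hand2, Mef2c, Nkx2-5 and Tbx20) were searched. Those of the other genes, Tbx2 and Gata6 among them, were not searched, so nothing is known here of their letters. The window of Hand2, a gene that did not pass, is also shown, since it held 4 of the 5 motifs, RBPJ and hypoxia letters among them. Whether any of these letters bear on the differences was not tested.
Hand2, chr8:57320733-57321032, plus strand: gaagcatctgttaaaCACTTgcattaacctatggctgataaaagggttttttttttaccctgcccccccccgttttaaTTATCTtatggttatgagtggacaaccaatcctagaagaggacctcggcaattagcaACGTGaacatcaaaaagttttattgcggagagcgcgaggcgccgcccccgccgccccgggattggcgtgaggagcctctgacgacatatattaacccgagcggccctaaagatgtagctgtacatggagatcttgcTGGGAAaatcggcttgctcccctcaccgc

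The RBPJ letters stood 22 bases into the Hand2 transcript, and are held by 25.6% of all windows. The hypoxia letters stood at position -115 from the start, and are held by 19.6% of all. The GATA letters (-172) are held by 11.2% of all windows. The Nkx2-5 window held RBPJ letters once and the Tbx20 window hypoxia letters once. These matches describe the letters only.

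Of the Mef2c probe sets, 3 share 1 source sequence. Among these, 1451506_at read 1.497 and 1.466 in Notch1 null, 1.26 in Notch1 het, 0.956 and 0.854 in wild type, 0.905 and 1 in Dll3 het and 0.802 and 1 in Dll3 null. Probe set 1424852_at read 1.19 and 1.37 in Notch1 null, 1.11 in Notch1 het, 0.903 and 0.693 in wild type, 0.739 and 0.849 in Dll3 het and 1.04 and 1 in Dll3 null. In both, the Notch1 null arrays lay above the other 7 and Notch1 het came next. Against wild type they rose 1.64-fold (log2 0.71 ± 0.13 SE, adjusted p = 0.0123) and 1.62-fold (log2 0.69 ± 0.15, adjusted p = 0.0196). Probe set 1451507_at did not show this order: Notch1 het read 1.229, above Notch1 null (1.212 and 1.175), and wild type read 0.924 and 1.055. Its log2 difference between Notch1 null and wild type was 0.27 ± 0.12 (adjusted p = 0.215).

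The other 2 Mef2c probe sets, for which the platform annotation names no source sequence, did not pass. At 1421027_a_at wild type was highest, at 1.37 and 1.39, and Notch1 null read 1.07 and 1 (log2 -0.42 ± 0.22 SE, adjusted p = 0.309). At 1421028_a_at Notch1 null read 1.08 and 1.13, against 1.02 and 1 for wild type (log2 0.12 ± 0.21, adjusted p = 0.803), and Notch1 null lay above the other 7 arrays. Both were lowest in Dll3 null replicate 1 (0.595 and 0.572), which lay far from Dll3 null replicate 2 (1.08 and 1). Grouped in this way after the values were seen, the mean log2 ratio of the 3 probe sets exceeded that of the 2 by 0.27 and 0.33 in Notch1 null and by 0.47 in Notch1 het, and lay below it in wild type (-0.35 and -0.47, 3 minus 2). In the Dll3 arrays the same difference was -0.23 and 0.02 in Dll3 het and 0.66 and -0.08 in Dll3 null, the value of Dll3 null replicate 1 being the highest of all 9 arrays. Averaged over all 5 probe sets, Mef2c did not pass (1.21-fold, log2 0.28 ± 0.13, adjusted p = 0.202).

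The calls of both Mef2c probe sets were lost when single arrays were left out. That of 1451506_at ended without Notch1 null replicate 1 (adjusted p = 0.0677), Notch1 null replicate 2 (0.0873), wild type replicate 1 (0.0502) and wild type replicate 2 (0.0944), with log2 differences of 0.61 to 0.79 over 18 alternatives. That of 1424852_at ended without Notch1 null replicate 1 (0.0603), Notch1 null replicate 2 (0.153) and wild type replicate 2 (0.126), with log2 differences of 0.50 to 0.88.

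**Figure D2:**
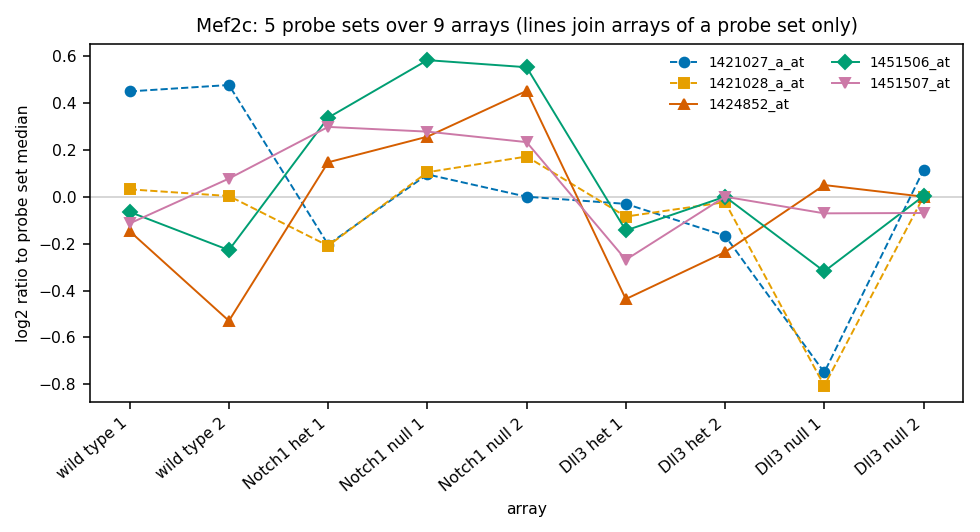
Log2 ratio of the 5 Mef2c probe sets (colours and symbols) in each of the 9 arrays; solid lines mark the 3 that share a source sequence, dashed lines the other 2, and lines only join the points of a probe set. The 3 solid ones were higher in Notch1 null than in wild type, while 1421027_a_at was highest in wild type and both dashed ones dropped in Dll3 null replicate 1.

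The 5 genes most like Mef2c 1451506_at over the 9 arrays, by the smallest root mean square difference of centred log2 ratios, were Wwc2 (0.08), Helz (0.09), Ap3b1 (0.09), Abcg1 (0.10) and Gabbr1 (0.10). Wwc2 read 1.53 and 1.58 in Notch1 null, 1.39 in Notch1 het and 0.885 and 0.893 in wild type. No heart gene of the lists used here was among the 5, but these lists hold few of the 12393 genes, so no conclusion is drawn from this.

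Homozygosity for the Dll3 allele gave no call against the control embryos. None of the 20 probe sets passed, where 0.0884% of all passed. By limma, 4 of the 20 had an unadjusted p under 0.05 (10.2% of all probe sets did), and robust regression called 2, Tbx2 and Mef2c 1421027_a_at (7.84% of all). Of the 4, Tbx2 (log2 -0.58), Hand1 1417525_at (-0.36) and Mef2c 1421027_a_at (-0.78) were lower and Mef2c 1424852_at (0.36) higher. Without Dll3 null replicate 2, Mef2c 1421027_a_at was called (log2 -1.21, adjusted p = 0.0151), which rests on replicate 1 alone. Against Dll3 het, Dll3 null differed at 0 of the 20 probe sets and at 0% of all, with 2 of the 20 at an unadjusted p under 0.05 (5.31% of all) and 0 by robust regression (0.11% of all).

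The heterozygotes showed no call. In Dll3 het against wild type 0 of 20 passed by limma (0.486% of all), 3 had an unadjusted p under 0.05 (16% of all) and robust regression called 2 (17.8% of all). In the single Notch1 het array against wild type 0 of 20 passed (2.76% of all), 8 had an unadjusted p under 0.05 (19.4% of all) and robust regression called 7 (28.6% of all). Notch1 null differed from Notch1 het at 0 of 20 (1.78% of all), with 5 at an unadjusted p under 0.05 (17.1% of all) and 5 by robust regression (26.5% of all). Both heterozygous comparisons and both null comparisons with wild type use the same 2 control arrays.

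Notch1 null and Dll3 null were set against each other, with no wild-type array in the contrast. Both Gata6 probe sets and Mef2c 1451506_at were higher in Notch1 null, and 17 of 20 did not pass. An unadjusted p under 0.05 was reached by 8 of 20, against 20.5% of all. The 3 calls of 20 (15%) compare with 5.74% of all probe sets, and in the direction higher with 2.46%. Gata6 was 1.57-fold higher at 1425463_at (log2 0.65 ± 0.13 SE, adjusted p = 0.0244) and 1.45-fold at 1425464_at (log2 0.53 ± 0.11, adjusted p = 0.0293). Mef2c 1451506_at was 1.65-fold higher (log2 0.72 ± 0.13, adjusted p = 0.0161). All arrays of one group lay above those of the other for these 3, as for 9 of the 20 probe sets and 17.4% of all.

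The count fell to 0 without Notch1 null replicate 1, Notch1 null replicate 2 or Dll3 null replicate 1, and with only the 4 arrays of both groups in the fit. With only those 4 arrays the smallest adjusted p over the 20 probe sets was 0.0740, and 0.0398% of all probe sets passed. Over 17 alternatives the log2 differences lay between 0.60 and 0.71, 0.47 and 0.59, and 0.56 and 0.89 for the 3 probe sets in the order above. Alternatives that only left out arrays of other groups could not move these values. The dap control also parts these groups, and its part in these differences was not tested.

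**Figure D3:**
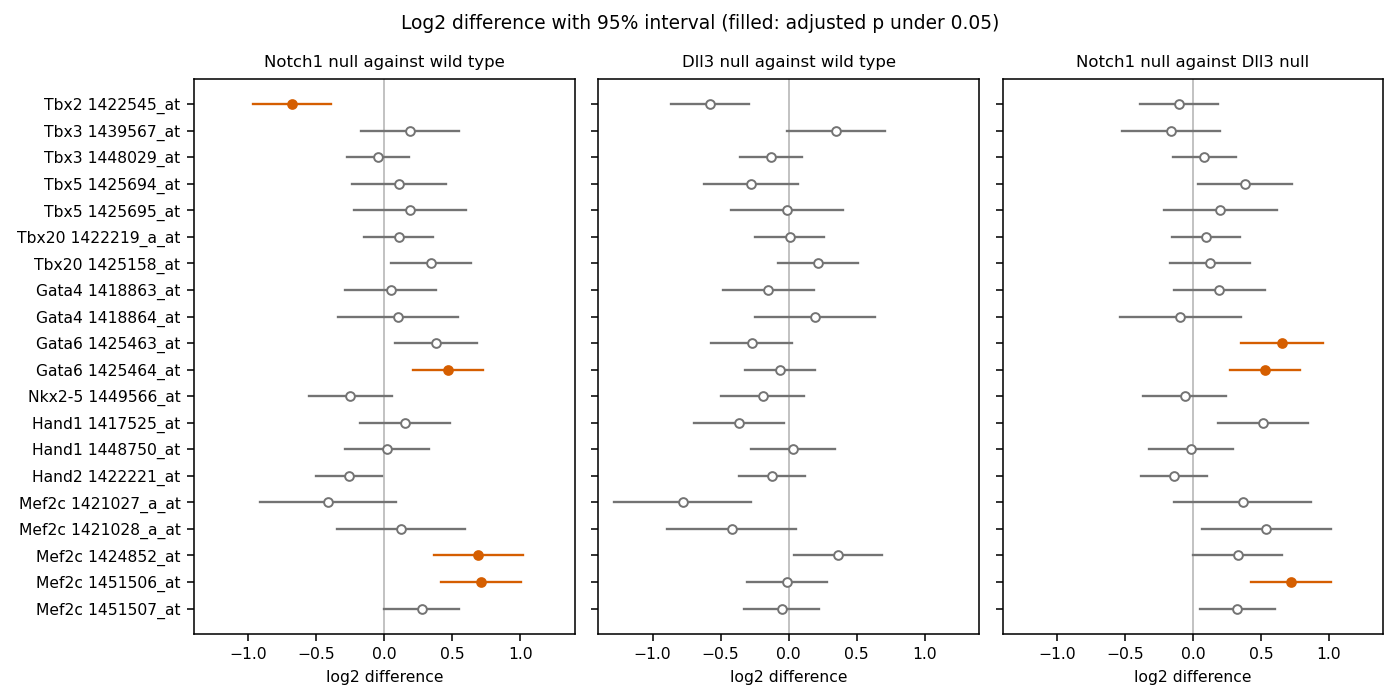
Log2 difference (point) with its 95% interval (line) for the 20 probe sets in 3 comparisons; filled points have an adjusted p under 0.05. Filled are Tbx2, Gata6 1425464_at, Mef2c 1424852_at and Mef2c 1451506_at in Notch1 null against wild type, none in Dll3 null against wild type, and both Gata6 probe sets and Mef2c 1451506_at in Notch1 null against Dll3 null.

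Other genes of heart development were read from gene lists, with probe sets averaged per gene. In Notch1 null against wild type 3.76% of 12393 genes were higher and 8.35% lower, with a median log2 difference of -0.03. Of 32 other cardiac transcription factors and cofactors 0 passed (median 0.05). By limma 6 had an unadjusted p under 0.05 (25.9% of all genes), and robust regression called 6 higher (11.7% of all genes) and 4 lower (21% of all genes). The lowest p were those of Zfpm2, a cofactor of GATA factors (log2 0.50 ± 0.15 SE, adjusted p = 0.0628), Mef2d (0.29 ± 0.11), Heyl (-0.27 ± 0.10) and Isl1, of the second heart field and motor neurons (-0.28 ± 0.11). Against Dll3 null, where 7.79% of genes passed (2.92% higher, 4.87% lower), Zfpm2 was higher (1.58-fold, adjusted p = 0.0308), as was Snai2 (1.39-fold, adjusted p = 0.0457). These 2 of 32 became 0 when Notch1 null replicate 1 or replicate 2 was left out, and 1 when a wild-type array, a Dll3 het array or Dll3 null replicate 1 was.

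Among 33 genes of heart muscle, many of them targets of these factors, 5 rose in Notch1 null and 1 fell (median 0.20). Nebl, of the sarcomere, rose 1.57-fold (log2 0.65 ± 0.14 SE, adjusted p = 0.0192) and Ryr2, the calcium release channel, rose too (log2 0.49 ± 0.13, adjusted p = 0.0392), besides Ankrd1, Myh7 and Ttn. Cdkn1c, a cell cycle inhibitor, fell 1.64-fold (log2 -0.71 ± 0.11, adjusted p = 0.00489). The number that rose was 3 without each Notch1 null or wild-type array in turn. The mean log2 ratio of this list was 0.06 and 0.19 in Notch1 null, -0.08 and -0.03 in wild type and -0.09 in Notch1 het, and lay between -0.08 and 0.01 in the Dll3 arrays.

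Of 30 genes for signals that act upstream of these factors, 6 rose and 1 fell (median 0.16). Bmp2, a ligand known to induce Tbx2 in the atrioventricular canal, rose 1.67-fold (log2 0.74 ± 0.13 SE, adjusted p = 0.00687), and Bmp4 1.38-fold (adjusted p = 0.0498). Tbx2 differences of like size, which did not pass, were seen in the Dll3 groups too, and any link of Bmp2 to Tbx2 was not tested. Has2, which makes the hyaluronan of the cushions, rose 1.73-fold, and Vcan, the cushion proteoglycan versican, 1.46-fold. Tgfbr3 and Notch1 itself were the other 2 that rose. Aldh1a2, which makes retinoic acid, fell 2.02-fold (log2 -1.01 ± 0.13, adjusted p = 0.0022). The number that rose was 1 without Notch1 null replicate 2 and 2 without either wild-type array.

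Some markers of other tissues in which these factors are transcribed were called in Notch1 null against wild type. Of all genes, 3.76% were higher and 8.35% lower in this comparison, and the limb bud and body wall count lay near that share. Endocardial and endothelial genes had 3 of 14 higher (median 0.20), Kdr, Sox18 and Tek, with 0 without Notch1 null replicate 2 and 1 without wild type replicate 1. Their mean log2 ratio was 0.11 and 0.29 in Notch1 null, 0.13 in Notch1 het and at most 0.01 in the other 6 arrays. Neural crest and branchial arch genes had 1 of 15 higher, Tfap2a, and 2 lower, Barx1 (2.13-fold) and Twist1 (1.55-fold). Of these, the higher count was 0 without Notch1 null replicate 2 or wild type replicate 2, and the lower count 1 without wild type replicate 2. Limb bud and body wall genes had 1 of 14 lower, Lhx2 (1.97-fold, adjusted p = 0.0248), with a median of -0.13, and 0 without either Notch1 null array or wild type replicate 2. Against the same wild-type arrays, Dll3 het had Twist1 lower too (log2 -0.75 ± 0.11 SE, adjusted p = 0.0447), and log2 differences that did not pass for Barx1 (-0.68) and Lhx2 (-0.63). In Dll3 null the 3 had -0.39, -0.76 and -0.33 in that order, and in Notch1 het -0.19, -0.78 and -0.49, none of which passed. The part of these tissues in the Tbx2 difference was not tested.

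Foregut and liver bud genes had 2 of 14 higher, Sox17 and Cdh1, and 2 lower, Prox1 and Alb, the lower count being 0 without Notch1 null replicate 2 or wild type replicate 2. Yolk sac genes had 2 of 17 higher, Lrp2 and Dab2 (1 without either Notch1 null array or wild type replicate 1). The list's median log2 difference was -0.12, with 5 of 17 genes above 0. Yolk sac genes also set replicates apart. Their mean log2 ratio was 0.29 and -0.43 for Notch1 null, against -0.27 and 0.44 for wild type. The Gata4 readings had the opposite order within both groups (1418863_at). Trophoblast genes had 2 of 9 higher, Krt8 and Krt18 (0 without Notch1 null replicate 2 or wild type replicate 1), and red cell genes 0 of 10, with 0 at an unadjusted p under 0.05 by limma and 2 lower by robust regression. Neuronal genes were lower in 15 of 17 (9 without Notch1 null replicate 2 or wild type replicate 1), and genes of hypoxia and glycolysis higher in 20 of 26. Thus the arrays in which Gata6 and some Mef2c probe sets were higher and Tbx2 lower differed from wild type in many other genes. Their part in the differences of the heart factors was not tested.

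**Figure D4:**
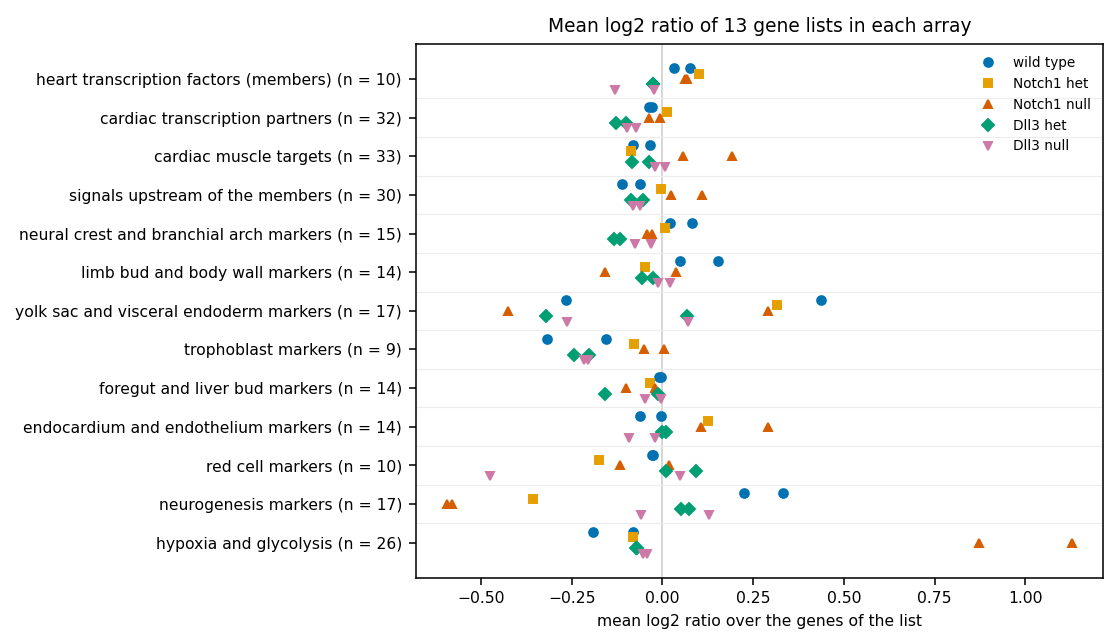
Mean log2 ratio over the measured genes of 13 lists (rows, with the number of genes) in each of the 9 arrays, by genotype (colour and symbol). The 10 heart transcription factors lay between -0.13 and 0.10, a mean over genes that differed in opposite directions (Tbx2 lower and Gata6 higher in Notch1 null).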

How the data were processed

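Total RNA of whole embryos was measured on Affymetrix arrays. The values the authors deposited are linear ratios per probe set; the submitters' processing notes name RMA, with no version. Across arrays the median is exactly 1 for 87.5% of 22690 probe sets and above 1 for 0, so values are relative within a probe set; the divisor is not stated. Ratios were converted to log2 with no pseudocount, 64 control probe sets were set aside, and the other 22626 were fitted by lmFit and eBayes of limma 3.58.1 (R 4.3.3) with 1 mean per genotype over all 9 arrays (4 residual and 5.42 prior degrees of freedom), in 7 comparisons. The Notch1 het array is assumed to vary like the others. The number of arrays limits the precision. No label says that replicates are separate litters, so p-values reflect array-to-array spread that may be technical.

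All probe sets of the 10 genes are reported; of each list up to 4 genes of lowest p are named, and in lists with 7 or fewer calls those called, the latter chosen after their values were seen. The genes and the 13 lists were chosen with earlier results of these data known. Symbols come from the platform annotation. Promoter sequences are from RefSeq (GRCm38.p6). The procedure was tested on simulated data. Replicate numbers were checked for pairing: the correlation of replicate differences between groups lay between -0.0983 and 0.159. These low values gave no sign of pairing, but cannot exclude a shared litter or batch. In Notch1 null, Dll3 het and Dll3 null, replicate 1 had the female and replicate 2 the male pattern. Both wild-type arrays had the male pattern, so replicate block and embryo sex are not the same in comparisons with wild type. In Notch1 null against wild type, 1874 of all probe sets were called with the block and 1641 with embryo sex in the fit. In Notch1 null against Dll3 null the numbers were closer (1095 and 1079).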

Additional observations from a re-analysis of the deposited data

Results flagged for a closer look

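The difference of each null genotype from wild type was compared between Notch1 null and Dll3 null by the contrast of both nulls in limma, and 3 probe sets differed. The log2 difference, Notch1 null minus Dll3 null, was 0.65 for Gata6 1425463_at, 0.53 for Gata6 1425464_at and 0.72 for Mef2c 1451506_at. With groups of 1 or 2 arrays no single array could be tested as standing apart.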

How the results depend on the processing

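Limits are the 1 or 2 arrays per group, the missing absolute level and the dap control, which follows the groups. The number of the 20 probe sets changed in Notch1 null against wild type (4) was 9 with robust regression (29.2% of all probe sets called), 2 genes with probe sets averaged, and 0 to 5 when single arrays were left out. In Notch1 null against Dll3 null (3) it was 1 with quantile normalization, 5 with robust regression (23.7% of all), 0 with only the arrays of both groups, 1 gene with probe sets averaged and 0 to 3 when single arrays were left out. With robust regression the comparisons with 0 calls gave 7 for Notch1 het against wild type (28.6% of all), 2 for Dll3 null (7.84%) and 2 for Dll3 het (17.8%) against wild type, and 5 for Notch1 null against Notch1 het (26.5%). With single arrays left out they gave 0 to 1 for Notch1 het and for Dll3 null against wild type, and 0 for Dll3 het against wild type, Notch1 null against Notch1 het and Dll3 null against Dll3 het. The cause was not tested, apart from the fewer arrays or features some of these use. Over all probe sets, the 2139 changed in Notch1 null against wild type became 969 with quantile normalization, 6608 with robust regression and 306 to 2139 with single arrays left out.

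With replicate number as a block, 3 probe sets were called in Notch1 null against wild type and 3 in Notch1 null against Dll3 null. The Gata6 1425464_at call against wild type ended (adjusted p = 0.0520). Whether the numbers pair the arrays is not known from the labels.

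In Notch1 null against wild type, log2 differences that did not pass turned sign 9 times. With single arrays left out, Tbx5 1425694_at ranged from -0.06 (-0.059 without Notch1 null replicate 1) to 0.27 and read -0.02 without wild type replicate 1, and Tbx5 1425695_at ranged from -0.05 (-0.049 without wild type replicate 1) to 0.43. Gata4 1418863_at ranged from -0.14 without wild type replicate 2 to 0.23, with -0.10 without Notch1 null replicate 2, and Gata4 1418864_at from -0.16 without Notch1 null replicate 2 to 0.36, with -0.14 without wild type replicate 2. Hand1 1448750_at ranged from -0.16 without wild type replicate 1 to 0.20, and was -0.013 with embryo sex in the fit. Of the other values of single probe sets under an alternative, 358 kept direction and side of the threshold, 37 lost the call and 7 gained one.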
